A study of Gallus gallus with 6 samples.

Results

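The 4 interferon induced genes described here are OASL, MX, IFIT5 and ISG12-2, taken from 10964 RefSeq transcript records listed in at least 1 of 6 chicken feather follicle libraries. Their records were picked by the symbol in the last parentheses of the record description: OASL, MX, LOC423790 and ISG12-2. Current RefSeq names LOC423790 as IFIT5, MX as MX1 and ISG12-2 as IFI6, and each symbol matched 1 record. The genes were chosen because earlier results from these libraries showed a pulse at day 2 and a high level in the pulp, so these contrasts are given as description and carry no test.

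Gene expression was measured by sequencing total RNA of Gallus gallus. The growth phase was represented by the pulp, the mesenchymal core of the feather, by the dermal papilla at the follicle base and by the feather epithelium. The dermal papilla was also taken at the resting phase, and the feather follicle at the regeneration phase 2 and 4 days after wounding. There was 1 library for each group. The differences below therefore have no replicate check, and intervals cover counting error only. The labels give no age, breed or number of birds, and do not say whether tissue was pooled.

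Interferons are secreted cytokines that bind cell surface receptors and signal through JAK kinases and STAT factors to promoters of interferon stimulated genes. OASL is the chicken oligoadenylate synthetase, an enzyme family that is activated by double-stranded RNA. MX is a dynamin-like GTPase, a family in which mammalian members block viruses. IFIT5 belongs to a family that in mammals binds foreign 5′ ends of RNA, and ISG12-2 is a small hydrophobic protein of the ISG12 family. Levels of different genes are not compared, since the deposited values are not divided by transcript length.

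Counts in the tables summed to between 1375518 and 2428052 per library. The pulp and epithelium libraries were deeper than the other 4 (5683214 and 6064791 reads in all, as recovered from the deposited values, against 3269376 to 3410045), and both tables have another text layout, so a contrast of either with the other 4 also contrasts these sets of tables. Tables list no record under 2 counts, and an unlisted record was taken to hold 0 or 1 counts, with folds against it computed at 3 counts as bounds. The labelled tissues were set against marker lists. Summed epithelial marker levels were 127 CPM in the pulp, 790.0 CPM in the growth papilla and 1676 CPM in the epithelium, and 858, 1331 and 938 CPM in the resting papilla, day 2 and day 4. Epithelial markers were thus read in the papilla and follicle libraries as well. Outside the epithelium most of this sum was KRT14, with 616 CPM in the growth papilla, 1051 CPM at day 2 and 479 CPM in the epithelium. EPCAM had 15.9, 57.2 and 534 CPM in these libraries. In the resting papilla KRT14 had 449.5 CPM and EPCAM 112 CPM, so these markers differed from day 2 in opposite directions. At day 2 over the resting papilla, 1 of 9 epithelial markers tested was higher and 0 lower, against 7.03% and 6.00% of all records. Summed fibroblast marker levels were 113 CPM in the epithelium and 4447 to 5659.6 CPM in the other 5 libraries. COL1A2 and LUM held most of the sum in these 5, and single markers differed more than the sum. In the pulp over the growth papilla, 1 of 8 tested was higher and 3 lower, against 19.1% and 14.7% of all records. LUM had 374 CPM in the pulp and 1599 CPM in the growth papilla, and FBN1 676 and 126 CPM. Levels are given as CPM of the recovered library total, scaled between libraries with TMM factors (trimmed mean of M values). In these bulk samples, fewer cells of a type and less RNA per cell cannot be told apart.

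OASL had 2592 reads in the pulp, 69 in the growth papilla and none listed in the epithelium, and 8 reads in the resting papilla, 888 at day 2 and 34 at day 4. The deposited values were 456.08 RPM in the pulp and 20.23 RPM in the growth papilla, then 2.39, 271.61 and 10.09 RPM in the resting papilla, at day 2 and at day 4. As scaled levels these were 446 CPM (95% Poisson interval 429 to 463), 20.3 CPM (15.8 to 25.7) and, for the unlisted epithelium, 0.719 CPM if taken at 3 counts, then 2.20 CPM (0.949 to 4.33), 242 CPM (226 to 258) and 8.63 CPM (5.98 to 12.1). The pulp and day 2 stood far above the other 4 libraries. The order was pulp, day 2, growth papilla, day 4 and resting papilla, with no overlap between the intervals of neighbours. The epithelium came last, but whether it differed from the 8 reads of the resting papilla beyond counting error is uncertain, since an unlisted record can hold 1 count.

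IFIT5 had 3287 reads in the pulp, 67 in the growth papilla and 8 in the epithelium, and 35, 1442 and 99 reads in the resting papilla, at day 2 and at day 4. The deposited values were 578.37, 19.65 and 1.32 RPM in the growing tissues in that order, then 10.44, 441.06 and 29.37 RPM. The scaled levels were 565 CPM (546 to 585), 19.7 CPM (15.3 to 25.0) and 1.92 CPM (0.828 to 3.78), then 9.62 CPM (6.70 to 13.4), 392 CPM (372 to 413) and 25.1 CPM (20.4 to 30.6). Pulp and day 2 were again highest, while day 4 and the growth papilla overlapped in their intervals.

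MX had 106 reads in the pulp, 11 in the growth papilla and none listed in the epithelium, and 11, 320 and 14 reads in the resting papilla, at day 2 and at day 4. The deposited values were 18.65 RPM in the pulp and 3.23 RPM in the growth papilla, then 3.28, 97.88 and 4.15 RPM in the resting papilla, at day 2 and at day 4. Its scaled level was 18.2 CPM (14.9 to 22.1) in the pulp and 87.1 CPM (77.8 to 97.2) at day 2. The growth papilla (3.24 CPM, 1.62 to 5.79), resting papilla (3.02 CPM, 1.51 to 5.41) and day 4 (3.55 CPM, 1.94 to 5.96) could not be ordered at this depth. Day 2 was the highest library for MX, followed by the pulp.

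ISG12-2 had 397 reads in the pulp, 40 in the growth papilla and 5 in the epithelium, and 30, 468 and 30 reads in the resting papilla, at day 2 and at day 4. The deposited values were 69.85, 11.73 and 0.82 RPM in the growing tissues, then 8.95, 143.15 and 8.9 RPM in the resting papilla, at day 2 and at day 4. Its scaled level was 68.3 CPM (61.7 to 75.3) in the pulp and 127 CPM (116 to 139) at day 2. The growth papilla (11.8 CPM, 8.41 to 16.0), the resting papilla (8.24 CPM, 5.56 to 11.8) and day 4 (7.62 CPM, 5.14 to 10.9) lay close together, and intervals of neighbours in this order overlapped. As with MX, day 2 was above the pulp. Whether ISG12-2 shares reads with ISG12-1, a record of the same family, was not tested.

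**Figure D1:**
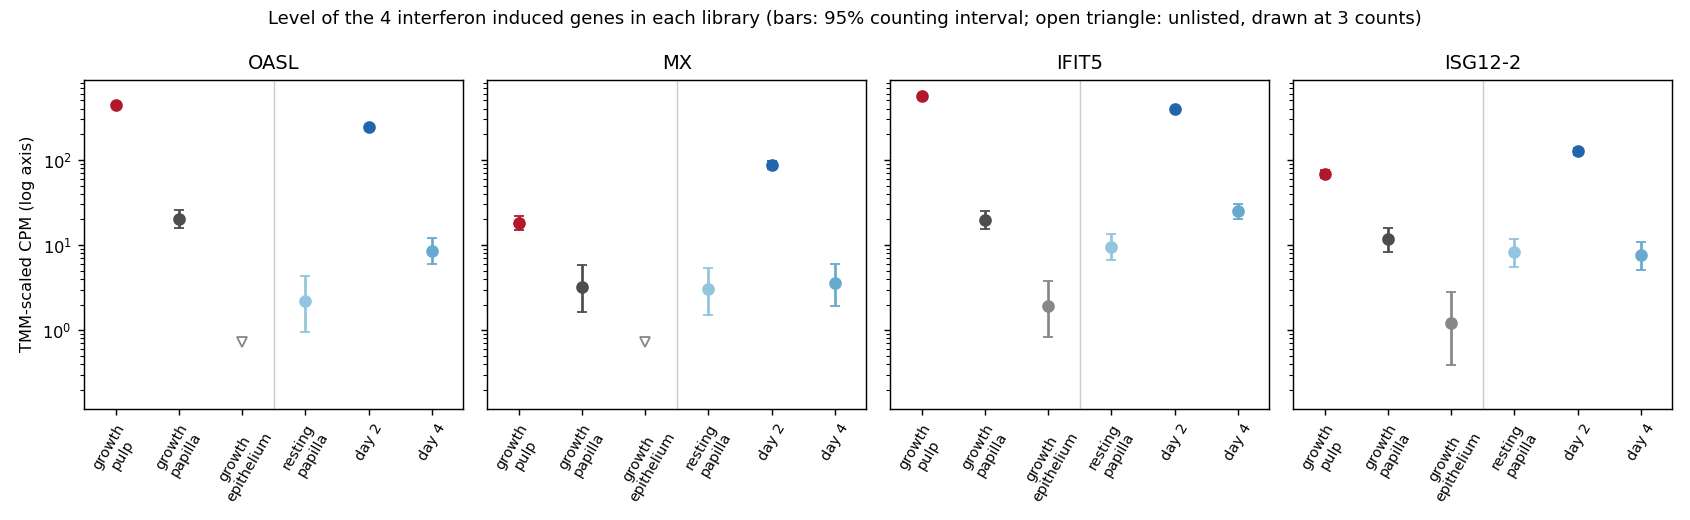
TMM-scaled CPM on a log axis for OASL, MX, IFIT5 and ISG12-2 in the 6 libraries, with 95% counting intervals and open triangles for unlisted records drawn at 3 counts. Pulp and day 2 are the 2 highest libraries for each gene, with the pulp above day 2 for OASL and IFIT5 and below it for MX and ISG12-2.

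Summed over the 4 genes, the share of listed counts was 0.270% in the pulp (95% Clopper-Pearson interval 0.263 to 0.277), 0.0131% in the growth papilla and 0.000535% in the epithelium. It was 0.00603% in the resting papilla, 0.227% at day 2 (0.219 to 0.235) and 0.0118% at day 4. On this sum the day 2 follicle came near the pulp, and day 4 came near the growth papilla. OASL and IFIT5 held most of the sum, with 40.6% and 51.5% in the pulp and 28.5% and 46.2% at day 2. MX and ISG12-2 were lower in the pulp than at day 2, so the sum does not describe each gene.

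For regeneration, the wounded follicle was compared with the resting papilla and between the days. The labels name a dermal papilla at rest but a feather follicle after wounding, and no unwounded follicle. In contrasts of day 2 or day 4 with the resting papilla, tissue and wounding therefore cannot be told apart. At day 2 all 4 genes were higher than in the resting papilla: OASL by 109.9-fold (55.6 to 255), IFIT5 by 40.8-fold (29.2 to 58.8), MX by 28.8-fold (15.9 to 58.3) and ISG12-2 by 15.5-fold (10.7 to 23.2). Of 6013 records with at least 20 reads in either library, 423 (7.03%) were at least 2-fold higher on the log2 ratio with a pseudocount of 1. This contrast chose the genes, so nothing is read from their count.

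At day 4 each gene was far below its level at day 2. OASL was 28.0-fold (19.9 to 40.7) lower at day 4, MX 24.5-fold (14.4 to 45.3), ISG12-2 16.7-fold (11.6 to 25.1) and IFIT5 15.6-fold (12.7 to 19.3). Of 6048 records tested, 232 (3.84%) were at least 2-fold lower at day 4 than at day 2, and 228 (3.77%) at least 2-fold higher. Ranked by the smaller of the ratios of day 2 over the resting papilla and over day 4, OASL, MX, IFIT5 and ISG12-2 took ranks 1, 2, 3 and 4 of 5826 records, with smaller log2 ratios of 4.66, 4.27, 3.91 and 3.80. In all, 108 (1.85%) of these records were at least 2-fold higher at day 2 than in both. The genes were chosen for this pulse, so nothing is read from their ranks. MX, with 11 reads in the resting papilla and 14 at day 4, passed the minimum of 20 reads only through day 2. OASL, with 8 reads in the resting papilla, did so in the comparison with the resting papilla.

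OASL and IFIT5 differed from ISG12-2 in how near their level in the day 4 follicle was to that in the resting papilla. OASL was 3.93-fold (1.78 to 9.82) and IFIT5 2.61-fold (1.76 to 3.96) higher at day 4 than in the resting papilla, where 501 of 6090 records (8.23%) were at least 2-fold higher and 420 (6.90%) at least 2-fold lower. With the deposited values, that comparison split into 625 higher and 344 lower records, in place of 501 and 420. ISG12-2 had a ratio of 0.924 (0.538 to 1.59), and its interval lay below those of OASL and IFIT5. MX, with 14 and 11 reads, was under the minimum of 20 reads and had a ratio of 1.18 (0.496 to 2.86). The MX interval overlapped those of the other genes, so MX could not be placed. With a pseudocount of 5, OASL had a log2 ratio of 0.92 and no longer passed the 2-fold rule. OASL had 8 reads in the resting papilla and passed the minimum of 20 reads only through day 4.

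The growing tissues were compared with each other to show where in the feather the genes were read. In the pulp all 4 genes were higher than in the growth papilla: IFIT5 by 28.7-fold (22.5 to 37.1), OASL by 22.0-fold (17.3 to 28.3), ISG12-2 by 5.80-fold (4.19 to 8.25) and MX by 5.63-fold (3.02 to 11.6). Of 6667 records, 1271 (19.1%) were at least 2-fold higher in the pulp than in the growth papilla. The pulp level was part of the rule, so this count too is a description. The tissues also differed in other cell markers: the summed level of 7 smooth muscle markers was 733 CPM in the pulp and 22919 CPM in the growth papilla, with 6 of 7 lower in the pulp (14.7% of all records) and a median log2 ratio of -4.93. In the resting papilla, at day 2 and at day 4 this sum was 7048, 2083 and 2294 CPM. The part of these differences in the levels of the 4 genes was not tested.

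The epithelium was the lowest library for each gene. IFIT5 was 295-fold (149 to 683) and ISG12-2 57.0-fold (24.2 to 176) higher in the pulp than in the epithelium, OASL at least 619.9-fold and MX at least 25.3-fold. In that comparison 26.7% of 6851 records were at least 2-fold higher. The growth papilla was above the epithelium by 10.3-fold (4.93 to 24.8) for IFIT5, by 9.82-fold (3.88 to 31.9) for ISG12-2 and by at least 28.2-fold for OASL, with 25.0% of 6362 records at least 2-fold higher. MX had too few reads there to be counted. With the deposited values, 2625 records were higher and 761 lower in the pulp than in the epithelium (1832 and 1398 after TMM), and 2231 higher and 861 lower in the growth papilla than in the epithelium (1588 and 1443 after TMM).

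The dermal papilla was compared between its phases. OASL was 9.24-fold (4.43 to 22.2) higher in the growth papilla than in the resting papilla, where 9.35% of 5957 records were at least 2-fold higher. IFIT5 had a ratio of 2.05 (1.34 to 3.18) and a log2 ratio with pseudocount of 0.96, just short of the 2-fold rule, and it passed with median-of-ratios scaling and with a pseudocount of 0.1. ISG12-2 had a ratio of 1.43 (0.867 to 2.37) and MX, with 11 reads in each papilla, 1.07 (0.421 to 2.72). Of the 4 genes, OASL thus had the highest ratio between the phases. With the deposited values the split of all records was 441 higher and 627 lower, in place of 557 and 475.

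The pulp and the day 2 follicle, the 2 libraries with high levels, differed in which of the genes was higher. MX was 4.78-fold (3.82 to 6.01) lower in the pulp than at day 2, and ISG12-2 had a ratio of 0.536 (0.468 to 0.614), which passed the 2-fold rule with the deposited values only. OASL had a ratio of 1.84 (1.71 to 1.99) and IFIT5 1.44 (1.35 to 1.53), so their intervals lay on the other side of 1. These directions held under each of the other 4 scalings tried. Of 6716 records, 911 (13.6%) were at least 2-fold lower and 1258 (18.7%) at least 2-fold higher in the pulp than at day 2.

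The same contrast appears as shares of the reads of the 4 genes, which no scaling between libraries can move. MX made up 1.66% (1.36 to 2.01) of these reads in the pulp and 10.3% (9.22 to 11.4) at day 2. ISG12-2 made up 6.22% (5.64 to 6.84) in the pulp and 15.0% (13.8 to 16.3) at day 2, while OASL made up 40.6% (39.4 to 41.8) in the pulp and 28.5% (26.9 to 30.1) at day 2. In the resting papilla, with 84 reads of the 4 genes, OASL made up 9.52% (4.20 to 17.9). At day 4, with 177 reads, it made up 19.2% (13.7 to 25.8), and in the growth papilla, with 187 reads, 36.9% (30.0 to 44.2). The interval of the growth papilla overlapped those of the pulp and of day 2.

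**Figure D2:**
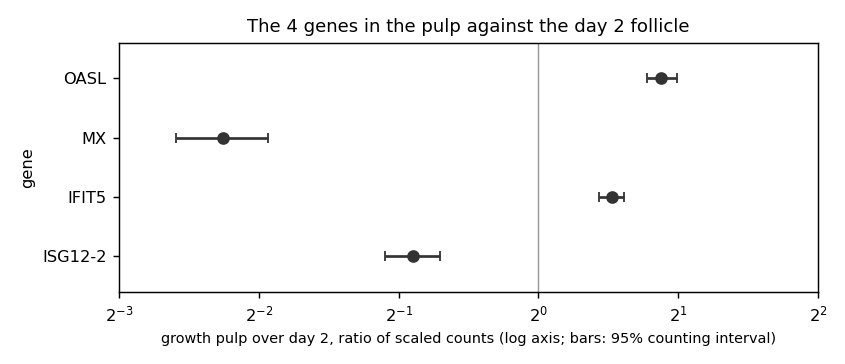
Ratio of scaled counts, growth pulp over day 2, on a log axis for each of the 4 genes, with 95% counting intervals. MX (0.209) and ISG12-2 (0.536) lie below 1, OASL (1.84) and IFIT5 (1.44) above it.

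The pathway upstream of the 4 genes was read at uneven depth. Of 11 interferon ligand names searched, the tables held interferon gamma (IFNG), with 10 reads in the pulp and 3 at day 2, and it was unlisted in the other 4 libraries. The other names matched no record, so type I and type III interferon transcripts were not analysed here. The type I receptor chain IFNAR2 had 94 reads in the pulp, 33 in the growth papilla and 17 in the epithelium, and 55, 90 and 83 reads in the resting papilla, at day 2 and at day 4. IFNAR2 was 3.97-fold (2.35 to 7.10) higher in the pulp than in the epithelium and had a ratio of 1.62 (1.15 to 2.31) at day 2 over the resting papilla. The interferon gamma receptor chains stayed within 2-fold at day 2 over the resting papilla, with ratios of 1.23 (1.02 to 1.48) for IFNGR1 and 0.938 (0.761 to 1.16) for IFNGR2.

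Of 22 receptor and signalling genes found in the tables, 14 had at least 20 reads at day 2 or in the resting papilla. At day 2, 4 of these rose and 0 fell, against 7.03% and 6.00% of all records, with a median log2 ratio of 0.64 against -0.06 over all records tested. IRF7, the transcription factor that drives interferon genes in birds, had 9, 87 and 35 reads in the resting papilla, at day 2 and at day 4, and was 9.57-fold (4.82 to 21.6) higher at day 2 than in the resting papilla. IRF1, another interferon regulatory factor, was 3.75-fold (2.69 to 5.31) higher, the kinase JAK1 3.30-fold (2.07 to 5.45) and SOCS3, a feedback inhibitor of cytokine signalling, 3.51-fold (2.83 to 4.37). STAT3 had a ratio of 1.87 (1.70 to 2.06). IRF7, with 9 reads in the resting papilla, passed the minimum of 20 reads there only through day 2. At day 4, IRF7, IRF1 and the phosphatase PTPN2 fell against day 2, and the other 11 of 14 tested stayed within 2-fold, where 3.84% of all records fell.

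In the pulp, 11 of 17 tested receptor and signalling genes were higher than in the epithelium and 1 was lower, against 26.7% and 20.4% of all records (median log2 ratio 1.92, against 0.08 over all records). Most of these 11 had under 20 reads in the epithelium, among them IRF7 with 5, IRF1 with 18 and PTPN6 with 6. They passed the minimum of 20 reads only through the pulp and could not be counted as lower. IRF7 was 69.7-fold (29.7 to 216) higher and IRF1 28.1-fold (17.7 to 47.8). IRF4, a factor of lymphocytes and myeloid cells, had 164 reads in the pulp, 6 in the growth papilla and 3 in the epithelium and was unlisted in the resting papilla, at day 2 and at day 4. PTPN6, a phosphatase of blood cells, was 23.0-fold (10.4 to 63.3) higher in the pulp than in the epithelium. IRF10, named IRF9 in current RefSeq, had 69 reads in the pulp, none listed in the epithelium and a ratio of at least 16.5.

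Among 14 nucleic acid sensing genes found, IFIH1 (MDA5), the cytoplasmic sensor of double-stranded RNA, was also highest in the pulp and at day 2. It had 88, 18 and 7 reads in the pulp, growth papilla and epithelium, and 14, 58 and 17 reads in the resting papilla, at day 2 and at day 4. IFIH1 was 4.10-fold (2.26 to 7.97) higher at day 2 than in the resting papilla, the 1 gene of 5 tested that rose, where 7.03% of all records did and the list had a median log2 ratio of 0.32. With 14 reads in the resting papilla, IFIH1 passed the minimum of 20 reads there only through day 2. MYD88, an adaptor of Toll-like receptors, had a ratio of 1.46 (0.999 to 2.14). In the pulp, 4 of 8 tested were higher than in the epithelium and 1 was lower, against 26.7% and 20.4% of all records, so these counts of few genes are not read further. The double-stranded RNA receptor TLR3 had 23 reads in the pulp, none listed in the epithelium and a ratio of at least 5.50, and TMEM173 (STING) was 2.96-fold (1.88 to 4.84) higher. TRIM29, with 6 reads in the pulp and 240 in the epithelium, was the lower gene.

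Beyond the 4 genes, 31 other interferon induced effectors were found of 48 names searched. At day 2 over the resting papilla, 17 of 26 tested rose and 0 fell, against 7.03% and 6.00% of all records, with a median log2 ratio of 1.26. SAMD9L, an antiviral restriction factor in mammals, had 6, 81 and 8 reads in the resting papilla, at day 2 and at day 4, and was 13.4-fold (5.88 to 37.5) higher at day 2 than in the resting papilla. EPSTI1 was 11.2-fold (5.18 to 28.7) higher, the guanylate binding protein GBP4L 9.16-fold (5.46 to 16.4) and ZNFX1, an RNA helicase, 8.56-fold (6.05 to 12.4). USP18 (USP41 in current RefSeq), which in mammals limits interferon receptor signalling, was 7.40-fold (4.30 to 13.7) higher and SAMHD1, a dNTP hydrolase, 7.04-fold (4.69 to 11.0). SAMD9L, EPSTI1, GBP4L and USP18 had 6, 7, 16 and 15 reads in the resting papilla. They were among those that passed the minimum number of reads only through day 2, and could not be counted as lower.

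At day 4 over day 2, 14 of 27 tested effectors fell and 0 rose, against 3.84% and 3.77% of all records, with a median log2 ratio of -1.04. Counted for the whole pulse, 13 of 26 effectors were at least 2-fold above both the resting papilla and day 4 at day 2, where all records gave 1.85%. By the smaller of the ratios, SAMD9L stood at rank 8, USP18 at rank 10 and EPSTI1 at rank 11 of 5826 records. SAMD9L and EPSTI1, with 8 and 14 reads at day 4, passed the minimum number of reads in both comparisons only through day 2. USP18 and GBP4L did so in the comparison with the resting papilla. Such genes could not be counted as lower at day 2. The rest of the 13 reached the minimum in the resting papilla, at day 2 and at day 4. Records of one gene family, such as the guanylate binding proteins or ISG12-1 and ISG12-2, can share reads where their sequences are alike. Sequences were not compared here, so these records are less certain. ISG12-1, named IFI27L2 in current RefSeq, had 912, 965 and 46 reads in the pulp, growth papilla and epithelium, and 322, 1145 and 421 in the resting papilla, at day 2 and at day 4, and its ratio of pulp over growth papilla was 0.552 (0.504 to 0.605).

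In the pulp, 17 of 28 tested effectors were higher than in the growth papilla and 1 was lower, against 19.1% and 14.7% of all records, with a median log2 ratio of 1.35. Over the epithelium 21 of 28 were higher and 2 lower, against 26.7% and 20.4% of all records. Most of these 21 had under 20 reads in the epithelium and passed the minimum of 20 reads only through the pulp. Against the growth papilla, EPSTI1, SAMD9L and USP18, with 10, 2 and 17 reads there, were among those that passed only through the pulp. Such genes could not be counted as lower. GBP1, with 766 reads in the pulp and 2 in the epithelium, was 275-fold (75.8 to 2273) higher in the pulp. IFITM5, DTX3L and GBP4L were also higher there than in the epithelium, IFITM5 70.1-fold (36.7 to 154), DTX3L 56.4-fold (24.0 to 175) and GBP4L 53.6-fold (20.7 to 198). The IFITM5 record carries the symbol LOC422992, and the names IFITM1, IFITM2 and IFITM3 matched no record. Whether this record is induced by interferon was not tested. The RNA editing enzyme ADAR, singled out after its values were seen, was not listed in the pulp and had 42 to 67 reads in the other 5 libraries. It is therefore counted as lower in the pulp than in the growth papilla, the epithelium and day 2. Whether its level in the pulp was low or its record was missing for another reason was not tested. Of 28 effectors that reached 20 reads somewhere, 19 had the pulp and day 2 above each of the other 4 libraries, a pattern met by 467 of 7205 records (6.48%). The same pattern was met by 11 of 21 leukocyte markers and by 2 of 3 erythroid markers. It was also met by 2 of 8 endothelium and 1 of 7 smooth muscle markers, and by 0 of 8 fibroblast and 0 of 9 epithelium markers.

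**Figure D3:**
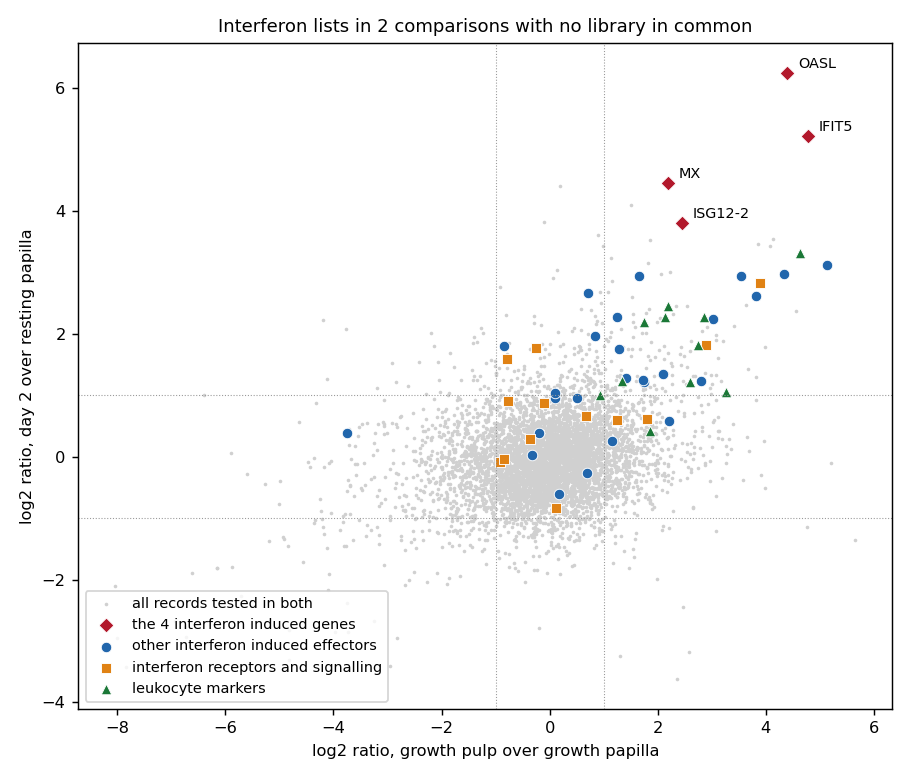
Log2 ratio of day 2 over the resting papilla (y axis) against growth pulp over growth papilla (x axis) for all records tested in both (grey), the 4 genes, other interferon induced effectors, receptors and signalling genes and leukocyte markers, with dotted lines at 2-fold. The 4 genes lie at the upper right, with log2 ratios of 3.80 to 6.25 at day 2 and 2.18 to 4.77 in the pulp.

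The effectors were also compared between the pulp and day 2. Of 28 tested, 8 were higher and 1 lower in the pulp than at day 2, against 18.7% and 13.6% of all records, with a median log2 ratio of 0.29 against 0.11 over all records. ZNFX1 was 2.83-fold (2.50 to 3.21) higher in the pulp than at day 2 and USP18 2.73-fold (2.21 to 3.38). ZC3HAV1 (0.903, 0.741 to 1.10) and EIF2AK2, the double-stranded RNA kinase PKR (1.18, 0.951 to 1.48), had intervals that held a ratio of 1. SOCS3 was lower in the pulp than at day 2, with a ratio of 0.111 (0.0846 to 0.144), and SOCS1, another feedback inhibitor, was 5.81-fold (3.40 to 10.7) higher.

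**Figure D4:**
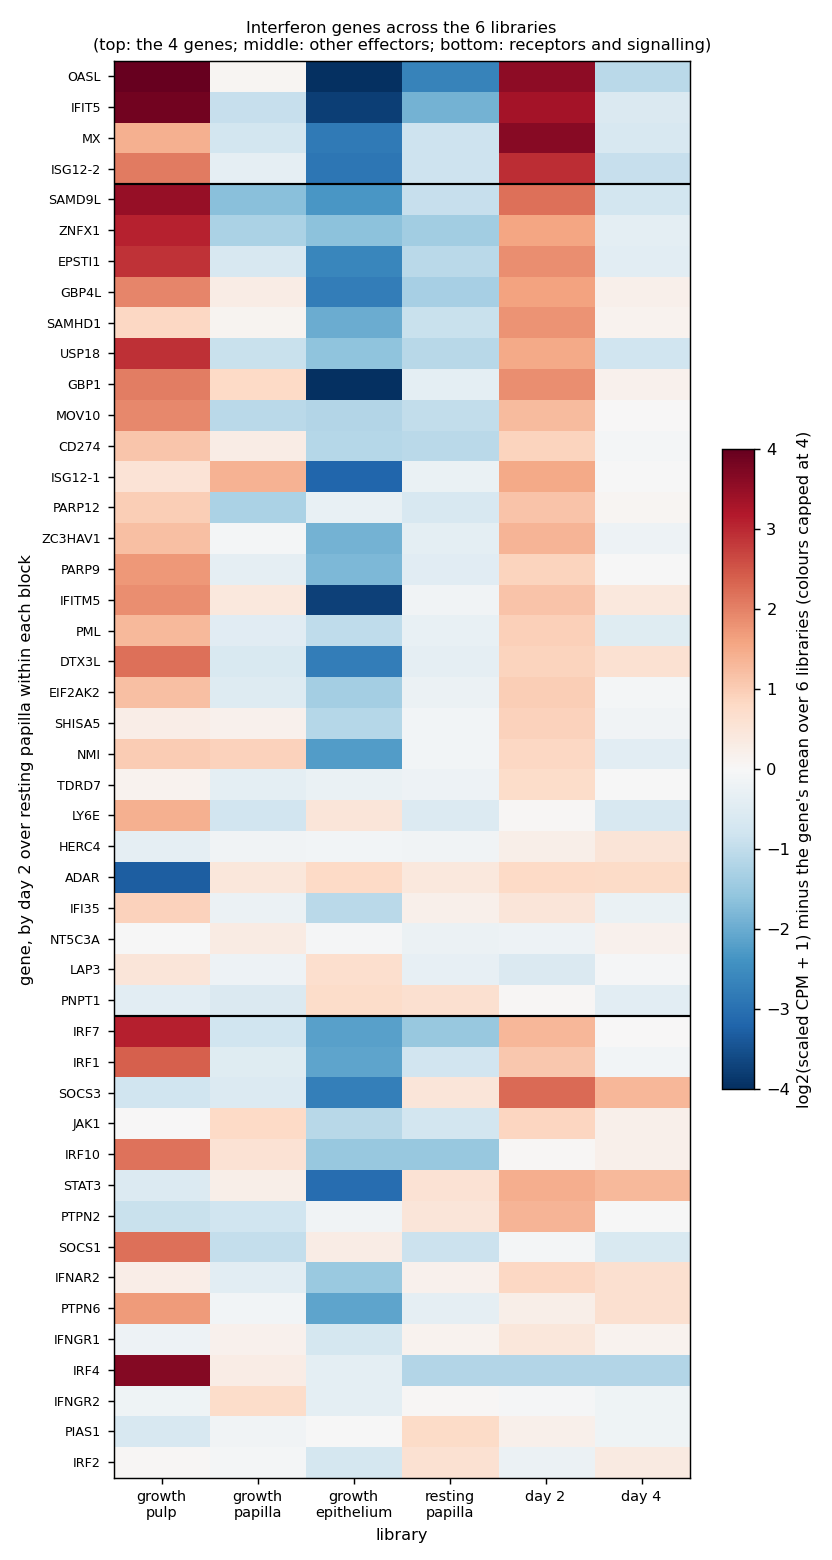
Log2(scaled CPM + 1) of each gene minus its mean over the 6 libraries (columns), for the 4 genes (top), other effectors (middle) and receptors and signalling genes (bottom), without members not reported by name, colours capped at 4 and genes ordered within a block by day 2 over the resting papilla. The pulp and day 2 columns are red for the 4 genes and for most effectors, while SOCS3 is red at day 2 and at day 4 and IRF4 in the pulp.

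Markers of leukocytes moved with part of the pattern. The summed level of 25 leukocyte markers was 2263 CPM in the pulp, 423 CPM in the growth papilla and 42.7 CPM in the epithelium, and 328, 729 and 659 CPM in the resting papilla, at day 2 and at day 4. Outside the epithelium, CD74 and BLB2 held most of this sum. They had 849.9 and 699 CPM in the pulp, 231 and 31.3 CPM in the resting papilla, and 308 and 155 CPM at day 2. In the pulp 19 of 21 tested markers were higher than in the growth papilla, with none lower, against 19.1% and 14.7% of all records. Most of these 19, among them CD4 and LCP1, passed the minimum number of reads only through the pulp. Such markers could not be counted as lower. C1QA, C1QB, CD74, ITGB2, LAPTM5, CTSS and BLB2 reached the minimum in both libraries. At day 2 over the resting papilla 9 of 11 tested markers were higher, against 7.03% of all records. Of these 9, C1QA, C1QC and SPI1 passed the minimum only through day 2. The pan-leukocyte marker PTPRC had 3 reads in the pulp and none listed in the growth papilla or the epithelium, and had 2, 5 and 2 reads in the resting papilla, at day 2 and at day 4. The T cell marker CD8A had 31 reads in the pulp and 2 in the epithelium, and was unlisted in the growth papilla, the resting papilla, at day 2 and at day 4. All 25 were listed in the pulp, and the number not listed was 7 in the growth papilla, 9 in the epithelium, 4 in the resting papilla, 2 at day 2 and 3 at day 4. Erythroid markers also moved with the pulp: the summed level of 3 was 1812 CPM in the pulp, 188 CPM in the growth papilla and 79.1 CPM in the epithelium, with 3 of 3 higher in the pulp than in the growth papilla and a median log2 ratio of 2.82. The part of leukocytes and other blood cells in the levels of the 4 genes was not tested.

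Most leukocyte markers stayed at day 4 within 2-fold of their level at day 2. At day 4 over day 2, 1 of 12 tested leukocyte markers fell and 0 rose, near the 3.84% and 3.77% of all records, with a median log2 ratio of -0.19. The median of the 4 genes, which were chosen for this contrast, was -4.09. The complement gene C1QB, made by macrophages, had 22, 255 and 346 reads in the resting papilla, at day 2 and at day 4. The myeloid transcription factor SPI1, with 16, 87 and 29 reads, was the marker that fell, with a ratio of 0.311 (0.197 to 0.478) at day 4 over day 2. Summed levels of the 3 erythroid markers were 38.2, 428 and 453 CPM in the resting papilla, at day 2 and at day 4. Those of 9 endothelial markers were 245, 444 and 381 CPM. At day 4 over day 2, all 3 erythroid and all 8 endothelial markers tested stayed within 2-fold. The endothelial marker VWF, with 466 reads at day 2 and 251 at day 4, had a ratio of 0.502 (0.429 to 0.587). The part of these cell types in the fall of the 4 genes was not tested.

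**Figure D5:**
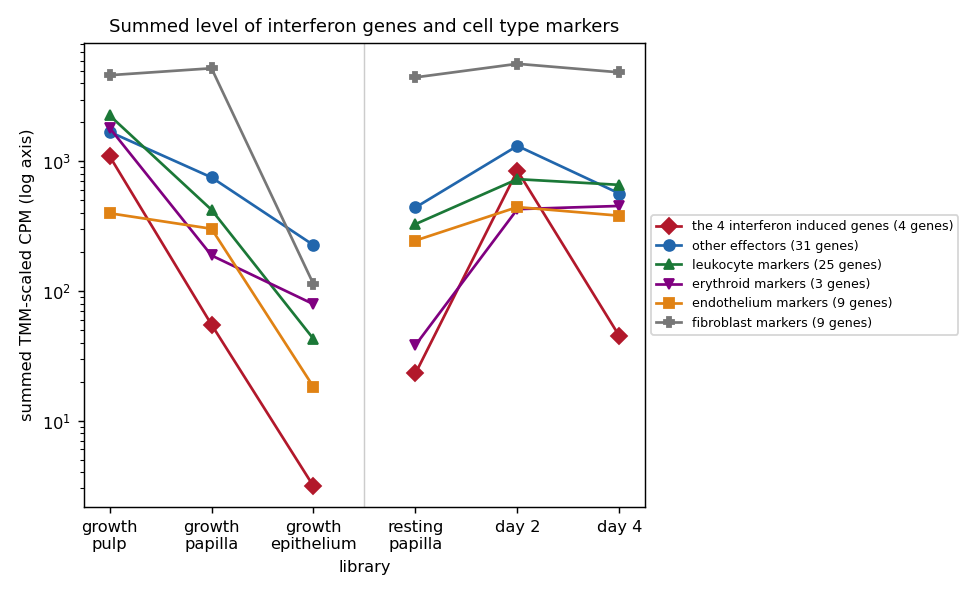
Summed TMM-scaled CPM on a log axis for the 4 genes, other effectors and leukocyte, erythroid, endothelium and fibroblast markers in the growing tissues (left) and in the resting papilla, day 2 and day 4 (right). The sum of the 4 genes was 23.1 CPM in the resting papilla, 849 CPM at day 2 and 44.9 CPM at day 4, while the leukocyte sum was 729 CPM at day 2 and 659 CPM at day 4. CD74 and BLB2 held most of the leukocyte sum at both days.

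Records whose profile over the 6 libraries was most like the mean profile of the 4 genes were ranked by Pearson r of log2(scaled CPM + 1). Among 2054 named records with 50 or more reads in their highest library and a range of at least 2 log2 units, 9 reached 0.95. The 8 highest were IFIH1 (0.998), RNF213 (0.987), LYGL (0.979), ZC3HAV1 (0.978), LOC769790 (0.978), EPSTI1 (0.975), PML (0.962) and LOC422513 (0.961). IFIH1, ZC3HAV1, EPSTI1 and PML were on the lists described above. The goose-type lysozyme LYGL had 337 reads in the pulp, 8 in the growth papilla and none listed in the epithelium, and 7, 121 and 13 in the resting papilla, at day 2 and at day 4. The ubiquitin ligase RNF213 had 60 and 10 reads in the pulp and growth papilla, none listed in the epithelium, then 3, 37 and 5 in the resting papilla, at day 2 and at day 4. The tables describe LOC422513 as similar to a HECT and RLD domain protein, and it had 335, 48 and 25 reads, then 46, 151 and 36.

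The 4 genes differed in how alike they were over the 6 libraries. OASL and IFIT5 had the highest r (0.985), followed by MX and ISG12-2 (0.978), IFIT5 and ISG12-2 (0.968), OASL and ISG12-2 (0.957), MX and IFIT5 (0.924) and OASL and MX (0.894). These are descriptions over 6 libraries that share their scaling. With ranks in place of levels, 260 of the 2054 records were at least as like the mean profile as the lowest of the 8, so this measure separates few records.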

How the data were processed

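The labels gave 6 groups with 1 library each. The authors deposited, per the file headers, 1 table per library with a whole-number count for each RefSeq transcript record and a second value headed TPM. That second value is a constant multiple of the count within a library, so the authors' deposited column is in RPM and is not divided by transcript length. Its library total was recovered from records with 500 or more counts, and listed counts made up 40.0% to 44.5% of it. The submitters' processing notes name mm10, which is a mouse build, for these chicken records. For the aligner, the strand and the way reads were counted, nothing is given in the sources used here.

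TMM factors from edgeR 4.0.16 in R 4.3.3 were 1.02 (pulp), 0.997 (growth papilla), 0.688 (epithelium), 1.09 (resting papilla), 1.12 (day 2) and 1.17 (day 4). Python 3.11.15, scipy 1.17.1 and matplotlib 3.10.9 did the rest. Log2 ratios used scaled CPM plus 1 among records with 20 or more reads in either library, and higher, lower, rose and fell refer to 2-fold on that scale. Printed folds have no pseudocount and carry exact conditional binomial 95% intervals. Bounds use 3 counts per library, hold for the reads observed and are not 95% limits. No test across genes was possible with 1 library per group. Reads without molecular identifiers are not independent molecules, so intervals cover counting error only. The procedure was run on simulated Poisson counts, with known folds given to records expected to have at least 20 reads in both libraries. These counts had no spread between birds, so they cannot show how calls from 1 library per group would hold in other birds. The 10 alternatives concerned scaling, pseudocount, filter, size rule and summing per symbol.

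The 4 genes, the lists and the comparisons were chosen with earlier results of these data known. Named genes were the 4 genes, up to 6 members of each interferon list by absolute log2 ratio at day 2 over the resting papilla and in the pulp over the epithelium, ligands, receptors, the 8 most alike records and defining cell markers. ISG12-1, SOCS1, EIF2AK2 and ADAR were picked after their values were seen. Names came from the tables or, by gene identifier or accession, from a RefSeq gene table of another build, and coordinates were not used. Some list members are counted but not reported here by name. In the dendritic and B cell list 3 of 10 names matched, and 1 was tested at day 2 over the resting papilla and stayed within 2-fold. Of 7 smooth muscle genes tested there, 1 was higher and 5 were lower, against 7.03% and 6.00% of all records. All 9 housekeeping genes stayed within 2-fold in that comparison. Most of them moved in the pulp over the epithelium, where 2 were higher and 3 lower, against 26.7% and 20.4% of all records. In the pulp over day 2, 1 was higher and 1 lower, against 18.7% and 13.6%.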

Additional observations from a re-analysis of the deposited data

How the results depend on the processing

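No paired analysis was possible because each group has 1 library, and no library could be left out for the same reason. Depth limits MX in the papillae and at day 4 (11 to 14 reads), OASL in the resting papilla (8 reads) and OASL and MX in the epithelium (unlisted). IFIT5 and ISG12-2 had 8 and 5 reads in the epithelium. The pulp and day 2 were the 2 highest libraries for all 4 genes under each of the 4 other scalings, and no log2 ratio of the 4 genes that passed 2-fold changed sign under any alternative. Against the deposited values, TMM moved the median log2 ratio of all records most for the pulp over the epithelium (0.61 as deposited, 0.08 after TMM) and the growth papilla over the epithelium (0.45 and -0.05).

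Counts of records past 2-fold, in the order pulp over epithelium, pulp over growth papilla, growth papilla over epithelium, growth over resting papilla, day 2 over resting papilla, day 4 over resting papilla, day 4 over day 2 and pulp over day 2, were 3230, 2251, 3031, 1032, 784, 921, 460 and 2169. A minimum of 200 reads gave 1344, 801, 1000, 265, 208, 243, 84 and 762, and a 4-fold rule 1476, 711, 1349, 134, 143, 113, 42 and 642. For growth over resting papilla, day 2 over resting papilla, day 4 over resting papilla and day 4 over day 2, a pseudocount of 5 gave 552, 418, 473 and 179 and no filter on low counts gave 1697, 1474, 1612 and 1070. A pseudocount of 5 gave 1385 for the pulp over day 2.

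Of the 4 genes, 3 passed in growth papilla over epithelium and 0 with a minimum of 200 reads, which removed them. In growth over resting papilla 1 passed, 2 with median-of-ratios scaling or a pseudocount of 0.1 and 0 with a minimum of 200 reads. In day 4 over resting papilla 2 passed, 1 with a pseudocount of 5 and 0 with a minimum of 200 reads or a 4-fold rule. In pulp over day 2, 1 passed and 2 with the deposited values. The cause was not tested for the scaling and pseudocount changes.

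Among the other effectors, a minimum of 200 reads gave 15 in place of 23 in pulp over epithelium, 2 in place of 13 in growth papilla over epithelium, 2 in place of 7 in growth over resting papilla, 5 in place of 17 in day 2 over resting papilla, 0 in place of 6 in day 4 over resting papilla and 5 in place of 14 in day 4 over day 2. A 4-fold rule gave 11 in place of 18 in pulp over growth papilla, 7 in growth papilla over epithelium, 0 in growth over resting papilla, 8 in day 2 over resting papilla, 0 in day 4 over resting papilla, 3 in day 4 over day 2 and 2 in place of 9 in pulp over day 2. A pseudocount of 5 gave 3 in growth over resting papilla and 1 in day 4 over resting papilla, where upper-quartile scaling gave 3. Of the 8 most alike records, 6 were shared with a pseudocount of 0.1 and 2 with Spearman rho.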

Other observations

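Among records with the largest pulse at day 2 after the 4 genes, several are not on the interferon lists. They were chosen after their values were seen. Avidin (AVD), a biotin binding protein of egg white, had 37 reads at day 2, was unlisted in the resting papilla and at day 4, and had 78 reads in the pulp. IL1R2, the decoy receptor of interleukin 1, had 21, 165 and 29 reads in the resting papilla, at day 2 and at day 4, but 20 reads in the pulp and 25 in the growth papilla. The lipocalin P20K had 428, 2137 and 210 reads and the matrix protein COMP 1366, 6494 and 1117 reads in the resting papilla, at day 2 and at day 4. COMP had 65 reads in the pulp and 752 in the growth papilla, so a pulse at day 2 was also seen in records that were low in the pulp.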
